A study of Mus musculus with 4 samples.

Results

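Sites of the transcription factor p63 that lay between genes, near a gene, and were listed in the alphaKO epidermis without a counterpart in wild-type (WT) epidermis are described here. They were chosen by 3 criteria. The alphaKO peak shared no base pair with a WT peak, its summit lay outside every protein-coding gene body, and the nearest end of a protein-coding gene was more than 1 kb but at most 50 kb away. This left 1969 of 14593 alphaKO peaks (13.5%), or 26.2% of the 7523 alphaKO peaks with no WT partner. Absence of a WT peak and distance to genes chose these sites, so neither is a finding about them.

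The sites come from chromatin immunoprecipitation followed by sequencing (ChIP-seq) with the p63 antibody EPR570 on epidermis of mouse dorsal skin at postnatal day 0. The study concerns p63 isoforms in AEC syndrome, a disorder of skin and appendages caused by p63 mutations. Epidermis of the genotype labelled p63 alphaKO was set against wild-type epidermis, with 1 ChIP library for each; the input library of each genotype was not used here. The sources do not describe what the alphaKO allele removes, the strain, the sex or how many animals were pooled. With 1 library a genotype there was no test between genotypes, and no p-value is given. The 95% Wilson intervals cover counting error only.

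p63 belongs to the p53 family and is needed to form and maintain stratified epithelia such as the epidermis. It is made as several isoforms with different C-terminal ends, of which the alpha form carries a sterile alpha motif (SAM) domain. In keratinocytes p63 is known for binding enhancers far from gene starts. DNA recognised by the p53 family holds a pair of short cores, in each of which a C is followed by A or T bases and a G.

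The alphaKO list held 14593 peaks and the WT list 10616. The fold, pileup and q of a peak are the authors' own values and rank peaks within their list. In the alphaKO list 51.6% of all peaks had no WT partner, and among the 3990 alphaKO peaks between genes at 1 to 50 kb the share was 49.3% (47.8 to 50.9). The sites described here are by their choice all of this 49.3%, so the share says nothing particular about them. The lists carry no read totals, and the lowest local background was 3.85 pileup units in alphaKO and 4.22 in WT. Of 6 keratinocyte marker genes, 5 had an alphaKO peak and 6 a WT peak in the gene or within 10 kb, and of 24 markers of other skin cells 7 had an alphaKO peak and 3 a WT peak. The share of all genes with a peak within 10 kb is not given here, and the alphaKO list is the longer one. A peak does not measure a transcript, so these counts do not check the tissue or compare the genotypes.

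Sequence was at hand only where a site fell on a RefSeq promoter window, which spans 250 bases before to 50 bases after a transcript start (GRCm38.p6, the assembly of mm10). A summit lay in such a window for 6 of the 1969 sites, each time at the start of a long non-coding RNA (lncRNA) gene. The windows were searched on both strands for a p53-family site, taken as 2 cores with 6 bases between them, where each core was CATG or CAAG or else CTTG or CTAG. The set of cores is its own reverse complement. The strongest of the 6 sites and 2 weaker ones are shown 5′ to 3′ on the strand of the lncRNA, with the cores in capitals, because 1 has its cores at the summit, 1 has them away from it and 1 has none. The windows are those of Gm29899 (chr14:19707753-19708052, plus strand), Gm34969 (chr1:185487019-185487318, plus strand) and 2410124H12Rik (chr16:92478492-92478791, plus strand).

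Gm29899: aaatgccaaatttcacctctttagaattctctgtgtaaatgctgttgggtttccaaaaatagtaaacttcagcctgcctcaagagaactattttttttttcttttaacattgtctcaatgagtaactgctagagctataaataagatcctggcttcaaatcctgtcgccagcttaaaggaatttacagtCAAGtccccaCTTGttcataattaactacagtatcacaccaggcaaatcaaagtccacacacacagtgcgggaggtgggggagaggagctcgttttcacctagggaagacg

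Gm34969: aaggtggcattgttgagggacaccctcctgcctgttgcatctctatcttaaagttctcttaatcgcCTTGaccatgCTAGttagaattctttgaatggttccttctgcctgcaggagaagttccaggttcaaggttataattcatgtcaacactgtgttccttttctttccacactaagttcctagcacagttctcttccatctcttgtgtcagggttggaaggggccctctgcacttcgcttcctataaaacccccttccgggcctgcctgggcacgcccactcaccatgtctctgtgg

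2410124H12Rik: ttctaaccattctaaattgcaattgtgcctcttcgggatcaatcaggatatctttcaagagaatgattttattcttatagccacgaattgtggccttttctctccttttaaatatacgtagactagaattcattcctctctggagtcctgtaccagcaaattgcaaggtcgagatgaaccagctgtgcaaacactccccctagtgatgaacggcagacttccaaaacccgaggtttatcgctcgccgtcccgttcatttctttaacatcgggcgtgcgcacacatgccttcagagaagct

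In the Gm29899 window the cores CAAG and CTTG spanned bases 190 to 203 counted from the 5′ end of the window, and the summit stood at base 195, so that the centre of the match was 1.5 bases from the summit. The peak there had a fold enrichment (the authors' ratio of pileup at the summit over local background) of 44.1 and a pileup of 257. It lay 43.3 kb from Nid2, which encodes the basement membrane protein nidogen-2. In the Gm34969 window the match spanned bases 67 to 80, outside the called peak, whose summit was at base 260 with a fold of 9.48. The 2410124H12Rik window, with its summit at base 276 and a fold of 10.9, held no match. Its nearest protein-coding gene was Rcan1, 12.6 kb away.

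The windows of Gm40955, Gm2885 and Gm16191, with folds of 10.5, 2.63 and 8.77, also held no match. Among windows hit by alphaKO-only summits between genes at 1 to 50 kb, 2 of 6 held a match and 1 of 6 held it within 50 bases of the summit. Among those hit by summits listed in both genotypes at the same distances, 9 of 24 held a match and 9 of 24 held it within 50 bases. Among those hit by WT-only summits, 1 of 19 held a match and 0 of 19 held it that close. Of all 32851 promoter windows, 2371 (7.22%) held a match. These numbers of windows are small, and a match describes letters, not binding.

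The alphaKO-only sites between genes were of moderate strength, with a long tail of strong ones. Their median fold was 12.9 (quartiles 9.19 and 20.9, highest 167), and 10% exceeded 35.4. The 2021 alphaKO peaks at the same distances that had a WT partner had a median alphaKO fold of 21.7 (quartiles 12.2 and 38.2). For the 812 WT-only peaks at these distances the median WT fold was 5.22 and the highest 19.8. Folds of the lists have separate backgrounds and are set side by side as a description.

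**Figure D1:**
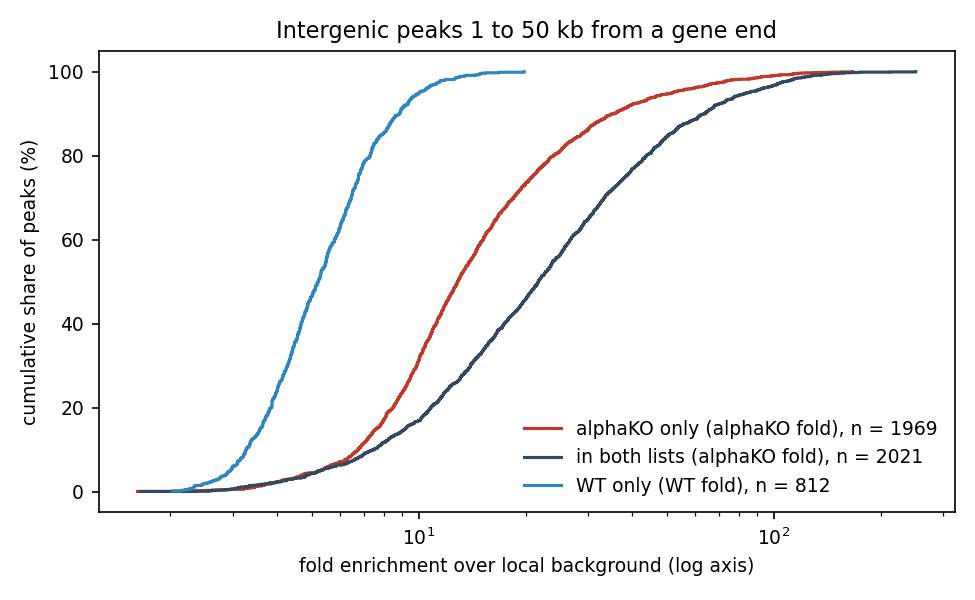
Cumulative share of peaks (percent, y axis) against the authors' fold enrichment (log x axis) for intergenic peaks 1 to 50 kb from a gene end, with 1969 alphaKO-only peaks in red, 2021 alphaKO peaks with a WT partner in dark grey and 812 WT-only peaks in blue. The medians are 12.9, 21.7 and 5.22, and the red curve lies between the others over most of its range.

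A −log10 q of at least 10 was reached by 96.4% (95.5 to 97.2) of the sites and 97.5% (96.7 to 98.1) of the partnered alphaKO peaks at the same distances. For alphaKO-only peaks it was 97.9% in gene bodies, 97.6% over 50 kb from genes and 90.8% within 1 kb of a gene end. High shares were thus common in this list and not particular to the sites. The sites had a median pileup of 84.0, against 166 for the partnered peaks. Their median width was 365 bp, against 453 bp. Of the 1969 sites, 242 (12.3%, 10.9 to 13.8) stood in the strongest quintile (the top of 5 equal groups by fold) of the whole alphaKO list, whereas 32.8% (30.8 to 34.9) of the partnered peaks did. In the top 100 peaks of the alphaKO list there were 6 of the sites, and in the top 1000 there were 88.

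The share without a WT partner was highest in the second-weakest quintile and lowest in the strongest. From the weakest to the strongest quintile of the alphaKO list, 61.3% (57.7 to 64.7), 68.6% (65.2 to 71.8), 54.7% (51.1 to 58.1), 40.4% (37.1 to 43.8) and 26.7% (24.0 to 29.7) of the peaks between genes at 1 to 50 kb had none. Over all alphaKO peaks, wherever they lay, the same quintiles gave 61.1%, 69.5%, 59.7%, 43.7% and 23.8%. By distance the shares were 39.6% (33.9 to 45.5) at 1 to 2 kb, 47.2% at 2 to 5 kb, 51.2% at 5 to 10 kb, 50.1% at 10 to 25 kb and 51% (48.0 to 54.0) at 25 to 50 kb. Strength itself was flat with distance: the sites' median fold ran between 11.3 at 1 to 2 kb and 13.6 at 5 to 10 kb. Across the 1969 sites, which share 1 library, fold had a Spearman correlation of -0.00038 with distance, 0.59 with width and -0.17 with local background. Local background was calculated from fold and pileup, so the last of these values is partly built in and is not a finding.

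**Figure D2:**
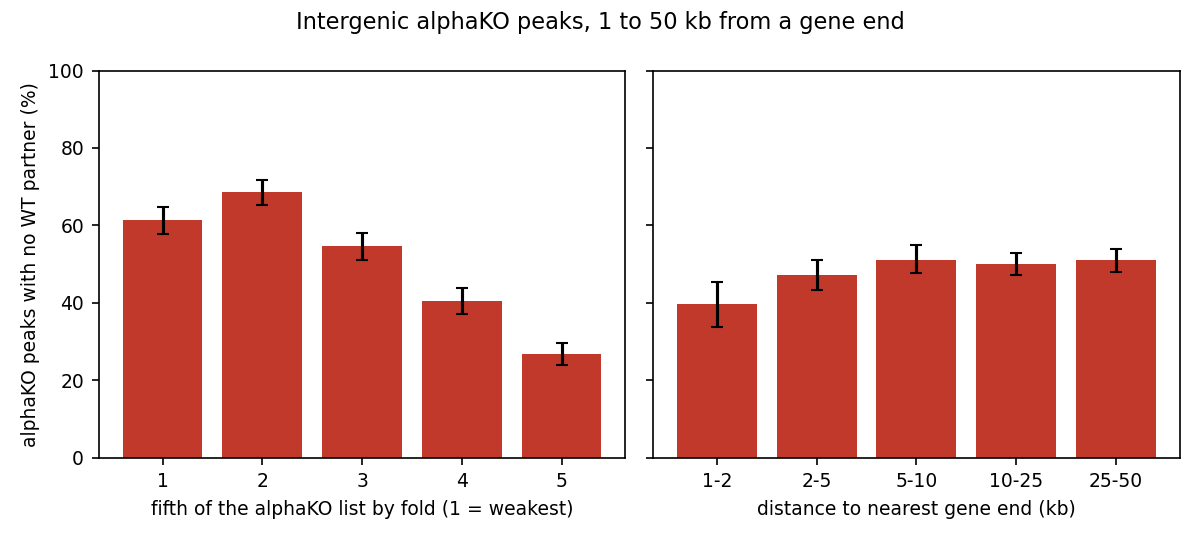
Share of intergenic alphaKO peaks 1 to 50 kb from a gene end that had no WT partner (percent, y axis), by quintile of the alphaKO list by fold (left, 1 is the weakest) and by distance to the nearest gene end in kb (right). Bars are shares and lines 95% Wilson intervals; the share is highest at 68.6% in the second quintile and lowest at 26.7% in the strongest, and it is 39.6% at 1 to 2 kb.

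WT folds are known only where a WT peak was listed. Partnered peaks at the same distances with an alphaKO fold from 9.19 to 20.9, the interquartile range of the alphaKO-only sites, numbered 668. They had a median WT fold of 9.39, and 90% of them lay between 5.01 and 20.3. Where several WT peaks overlapped, the highest WT fold was taken. The 5th percentile of all WT peaks was 3.14. The partnered peaks were chosen for having a listed WT peak, so their WT folds do not tell what an unlisted site would reach. A site missing from the WT list can still hold signal under that list's threshold, and WT signal at the sites was not analysed here.

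Local background differed between the alphaKO-only sites and the partnered peaks within the alphaKO list, where both come from the same peak list. Which library the background was taken from is not given. Recovered from the pileup and the fold, local background had a median of 5.33 pileup units (quartiles 4.50 and 6.34) at the sites and 6.49 (5.36 and 7.75) at partnered peaks. Within the quintiles by fold the medians were 5.81 against 6.91, 5.33 against 6.30, 5.08 against 6.49, 5.08 against 6.49 and 5.22 against 6.30. On the autosomes alone they were 5.33 and 6.49 over all quintiles. Peaks listed in alphaKO alone that lay in gene bodies had a median background of 5.36, those over 50 kb from genes 5.08, and those within 1 kb of a gene end 6.30. At WT-only peaks of the same distances the background, in the WT list, was 8.31.

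**Figure D3:**
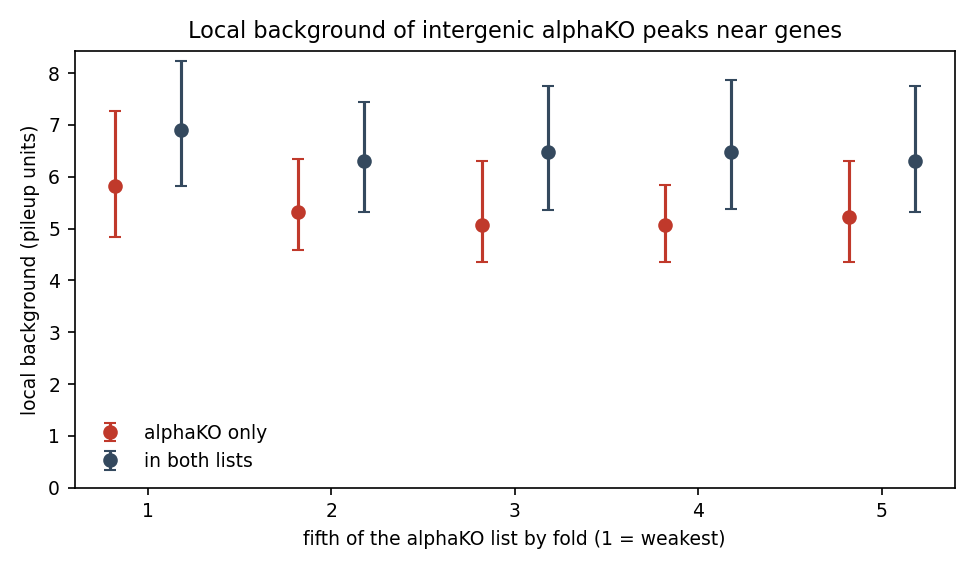
Local background in pileup units (y axis) of intergenic alphaKO peaks 1 to 50 kb from a gene end, by quintile of the alphaKO list by fold (x axis, 1 is the weakest), with alphaKO-only peaks in red and peaks in both lists in dark grey. Points are medians and lines join the quartiles; the red median is below the dark grey one in each quintile, for example 5.08 against 6.49 in the third.

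In median strength and width the sites lay close to the other distal alphaKO-only peaks. Median folds were 12.9 for the sites, 12.8 for the 3497 alphaKO-only peaks in gene bodies and 13.2 for the 1646 in gene deserts, over 50 kb from any gene. Median widths were 365, 360 and 364 bp. The strongest quintile held 12.3% (10.9 to 13.8) of the sites, 7.41% (6.58 to 8.32) of the gene-body peaks and 11.1% (9.69 to 12.7) of the desert peaks. Peaks are not replicates, so these differences carry counting intervals and no test.

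The sites stood on either side of their nearest gene. Among the 1520 sites whose nearest gene had a strand in the RefSeq promoter table, the nearest end was the 5′ end for 840 (55.3%, 52.8 to 57.7) and the 3′ end for 680. For partnered alphaKO peaks the share at the 5′ end was 58.5% (56.1 to 61.0) and for WT-only peaks 57.6% (53.7 to 61.5), and the intervals overlap. Median folds were 12.5 before a 5′ end and 13.1 after a 3′ end. A lncRNA gene body held 283 of the sites (14.4%, 12.9 to 16%) and 18.4% (16.7 to 20.1) of partnered peaks. Within 1 kb of a lncRNA gene end lay 3.96% (3.19 to 4.92) of the sites, 7.62% (6.54 to 8.86) of partnered peaks and 8.87% (7.10 to 11.0) of WT-only peaks.

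A majority of the sites had as nearest gene one that p63 also marked in WT. The nearest gene had a WT peak in its body or within 50 kb for 1180 of 1969 sites (59.9%, 57.7 to 62.1), where 47.1% of all 21883 protein-coding genes had such a peak. Sites per gene and genes are different units, so these shares are set side by side only. For alphaKO-only peaks in gene bodies the share was 70.1% (68.5 to 71.6), and in deserts 53.7% (51.3 to 56.1). The other 789 sites, beside 695 genes, had a median fold of 14.5, and 16.7% of them were in the strongest quintile. The 1180 sites beside WT-marked genes had a median fold of 11.9, with 9.32% in the strongest quintile. An alphaKO peak with a WT partner lay within 50 kb of 42.5% (40.3 to 44.7) of the sites, and any WT peak within 5 kb of 11.0% (9.71 to 12.5).

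Over all 1969 sites, which by their choice overlap no WT peak, the median distance to the nearest WT peak was 48.0 kb (quartiles 14.3 and 143 kb). The 12 strongest sites stood beside genes of varied function, at 8.21 to 243 kb from the nearest WT peak. The strongest, 21.1 kb from the 3′ end of Gm8439 (chromosome 4, 120630526 to 120631084), had a pileup of 974 and was 158 kb from the nearest WT peak. Others were sites near Cpeb2, which encodes an RNA-binding protein (154, WT peak 45.7 kb away), near Fam3b, which encodes a secreted protein (143, 162 kb), and near Bpifb1 (134, 243 kb).

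Upstream of Hpse, which encodes heparanase, the enzyme that cleaves heparan sulphate, a site at 5.64 kb (chromosome 5, 100725057 to 100725687) had a fold of 124. Its nearest partnered peak was 458 kb away, and Hpse had no WT peak in its body or within 50 kb. Sites near Gm8267 (120) and Cryge, a gamma-crystallin gene of the lens (117), were also among the 12. The last 3 of the 12 lay near Shcbp1 (114), Supt3 (114) and Nfe2l3, which encodes a CNC-family transcription factor (113). The Nfe2l3 site, 23.0 kb before the gene (chromosome 6, 51409361 to 51409968), was the only one of the 12 with a WT peak within 10 kb, at 8.21 kb.

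Several genes had a group of sites around them. The 1969 sites had 1724 nearest genes, of which 1513 had 1 site, 185 had 2, 19 had 3, 6 had 4 and 1 had 5. Emb, which encodes embigin, a cell-surface protein of the immunoglobulin superfamily, had the 5. They lay 27.4 kb before the gene (fold 16.8) and 4.54, 5.23, 7.04 and 18 kb after it (folds 10.3, 13.0, 52.2 and 12). The strongest covered chromosome 13, 117281225 to 117281698. No WT peak lay in Emb or within 50 kb, and a further alphaKO-only peak stood in the gene body (43.8).

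Prelp encodes a small leucine-rich proteoglycan of the extracellular matrix. Before its 5′ end lay 4 sites, at 3.48, 17.8, 35.3 and 48.8 kb, with folds of 32.0, 13.6, 20.5 and 3.21, and no WT peak stood within 50 kb of the gene. E330021D16Rik had 4 sites with folds of 34.3, 17.4, 8.38 and 18.8, beside a single WT-only peak with a fold of 3.49.

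Around Pdgfa, which encodes the A chain of platelet-derived growth factor, sites and partnered peaks were interspersed after the 3′ end. The 4 sites, at 9.85, 31.8, 34.6 and 43.0 kb, had folds of 11.0, 8.77, 24.5 and 4.45. Partnered peaks at 28.3 and 45.6 kb had alphaKO folds of 10.2 and 26.2, and their WT folds were 9.85 and 6.55. Zhx2, which encodes a zinc-finger and homeobox repressor, had 4 sites on its lower-coordinate side, with folds of 33.1, 2.92, 9.37 and 3.66. On the same side stood partnered peaks of 62.0 and 23.8 in alphaKO (14.7 and 10.2 in WT) and a WT-only peak of 2.98. A further partnered peak of 17.8 in alphaKO (8.27 in WT) lay on the other side, nearest to another gene.

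**Figure D4:**
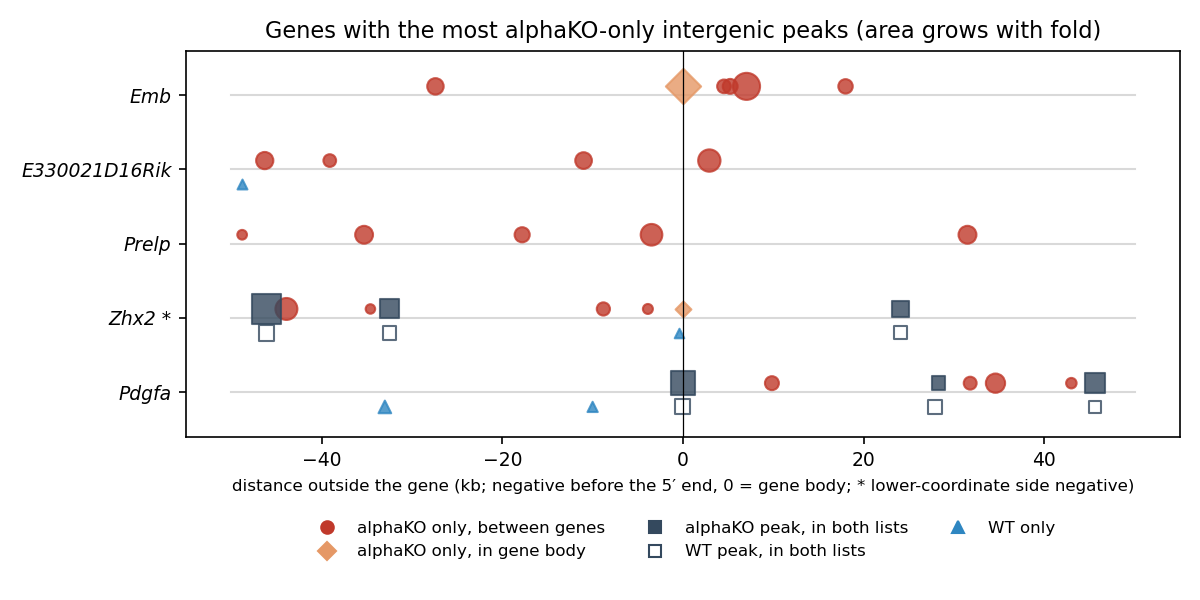
Peaks within 50 kb of the 5 genes with the most alphaKO-only intergenic sites, placed by distance outside the gene in kb (x axis; negative before the 5′ end, 0 for any place in the gene body; for Zhx2, whose strand was not used, negative on the side of lower coordinates), with symbol area growing with fold. Red circles are alphaKO-only peaks between genes, dark filled squares alphaKO peaks in both lists, orange diamonds alphaKO-only peaks in a gene body, open squares WT peaks in both lists and blue triangles WT-only peaks; no WT symbol appears at Emb or Prelp, and the red circle 31.5 kb after Prelp is nearest to another gene.

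The genes of the epidermis were read through 15 lists with 430 matched genes. Of the 1969 sites, 94 had a gene of these lists as nearest gene, covering 84 genes, and their median fold was 11.8 against 12.9 for all the sites. Among partnered peaks at the same distances, 165 of 2021 had a list gene as nearest, covering 110 genes, and among WT-only peaks 91 of 812. Of the 84 genes, 15 had no WT peak in the body or within 50 kb. Such a peak was present for 316 of the 430 matched genes. Of all 21883 protein-coding genes, 1724 (7.88%) were the nearest gene of a site, and 47.1% had a WT peak in the body or within 50 kb. No enrichment was tested.

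Genes of basal keratinocytes and of their anchorage were nearest to 7 of the sites (6 of 25 genes, median fold 10.9). They were led by Dst, which encodes a hemidesmosomal plakin, with a site 36.0 kb after its 3′ end (63.5, chromosome 1, 34344370 to 34344884), and by Nid2, with the site on the Gm29899 start. Itga6, the integrin alpha-6 gene, had a site at 15.6 kb (11.3) and Cdh3, the P-cadherin gene, at 1.78 kb (10.9). All 6 genes had a WT peak in the body or within 50 kb, as did 23 of the 25 listed.

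Junction genes were nearest to 10 of the sites (9 of 26 genes, median fold 12.3), and all 9 had a WT peak in the body or within 50 kb, as did 24 of the 26 listed. Upstream of Cldn4, a tight-junction claudin gene, a site at 3.07 kb had a fold of 17.8 and stood 0.803 kb from a WT summit. Perp, a desmosome gene and p53-family target, had a site at 27.3 kb (15.3), and Pkp1, which encodes plakophilin-1, at 13.8 kb (14.6).

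Suprabasal and envelope genes had 4 sites (4 of 25 genes, median fold 7.54). The site 4.12 kb upstream of Flg, which encodes filaggrin (14.2, chromosome 3, 93269239 to 93269583), was 88.0 kb from any WT peak, and Flg had none within 50 kb. Sites near Tgm3, a transglutaminase gene (9.81), Sprr1a (5.27) and Casp14 (3.86) were weaker. For Casp14, which encodes the caspase of cornification, a WT peak stood 4.16 kb from the site. Barrier lipid genes also had 4 sites (4 of 25 genes, median 12.7). These lay near Elovl4, a fatty acid elongase gene (23.4), Sptlc3 (15.5), Elovl7 (9.90) and Abca12, the lipid transporter gene mutated in harlequin ichthyosis (8.11).

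Transcription regulators of the epidermis had 14 of the 1969 sites (12 of 55 genes, median fold 11.3). At these distances they had 33 of the 2021 partnered peaks and 29 of the 812 WT-only peaks. Pitx1, a homeobox gene of limb identity, had a site 36.6 kb away with a fold of 30.1 and no WT peak within 50 kb. Satb1, a chromatin organiser, had a site at 22.5 kb (19.1), Myc at 48.9 kb (14.5) and Runx1 at 20.3 kb after its 3′ end (14.2). The Runx1 site was 123 kb from any WT peak.

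Hair follicle and appendage genes had 12 sites (10 of 38 genes, median fold 11.1). Of these 10 genes, 4 had no WT peak in the body or within 50 kb, where 27 of the 38 listed had one. Tcf7l2, a Wnt-pathway transcription factor gene, had a site 42.6 kb after its 3′ end (38.1). Nfatc1, a regulator of hair follicle stem cells, had a site at 5.11 kb (20.0), Msx1, a homeobox gene of teeth and appendages, at 7.74 kb (16.3), and Lhx2 at 40.8 kb (16.2). The Msx1 site was 664 kb from the nearest WT peak.

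Signalling genes, the longest list, had 25 sites beside 21 of 63 genes (median fold 11.0), and 39 of the 2021 partnered peaks. The count follows the length of the list, since junction genes had sites beside 9 of 26. Over all genes, 7.88% were the nearest gene of a site. Fzd1, a Wnt receptor gene, had a site at 40.1 kb (53.4), and Smad7, an inhibitor of TGF-beta signalling, a site at 2.77 kb (32.6) that was 171 kb from any WT peak. Fgfr3, a fibroblast growth factor receptor gene, had a site 8.97 kb before its 5′ end (25), with a partnered peak 4.03 kb from it.

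Targets of the p53 family had 8 sites (8 of 28 genes, where 7.88% of all genes were nearest to a site). Their median fold was 22.0 against 12.9 for all the sites. The 8 folds ran from 43.7 down to 7.13, and those named here were the highest. Partnered peaks beside genes of this list had a median alphaKO fold of 17.2, against 21.7 for all partnered peaks at these distances. Fas, a death receptor gene, had a site 7.90 kb upstream (43.7, chromosome 19, 34282519 to 34283004). Gadd45a, a stress-response gene, had a site 5.58 kb upstream (30.3), and Sesn2, a sestrin gene, a site 5.18 kb upstream (22.5). Rrm2b, a ribonucleotide reductase subunit gene, had a site at 22.5 kb (27.1) and was the only one of the 8 with no WT peak within 50 kb. Of the 28 genes listed, 25 had such a peak. The list was chosen with earlier results of these data known, and its median is a description.

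Of the alarmin and cytokine genes, 5 of 27 had a site (median fold 12.6). Tlr2, a pattern-recognition receptor gene, had a site 21.2 kb after its 3′ end with a fold of 65.6. Nfkbiz (19.3), Il1b (12.6) and Cxcl1 (10.3) followed. Collagen and matrix genes had 3 sites among 36 genes, with folds of 92.6 near Lum, 7.36 near Col4a1 and 6.36 near Sparc. The Lum site, 3.21 kb from the gene that encodes the proteoglycan lumican (chromosome 10, 97561964 to 97562566), had a pileup of 508, and the nearest WT peak was 638 kb away.

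Of the chromatin regulator genes, 1 of 27 had a site, Kdm6a, a histone demethylase gene on the X chromosome (37.3). Among markers of other cells, a site had as nearest gene 1 of 10 melanocyte genes, Mitf (73.9, 24.0 kb after its 3′ end), 0 of 11 immune genes and 0 of 10 endothelial genes, counts too small to set apart from the 7.88% of all genes. Of 25 neuron and channel genes 1 had a site, Syt1 (60.8). These genes are few, and a nearest gene need not be the gene that a site acts on.

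The X chromosome stood apart from the autosomes. Of the 78 alphaKO peaks between genes at 1 to 50 kb on X, 55 (70.5%, 59.6 to 79.5) had no WT partner, against 48.9% (47.3 to 50.4) of 3905 on the autosomes. The median fold of these sites was 17.1 on X. In the full lists X had 269 alphaKO and 140 WT peaks, a ratio of 1.92, where the autosomes had a ratio of 1.37. At partnered peaks the median ratio of alphaKO to WT pileup was 1.41 on X and 1.40 on the autosomes, and the median ratio of alphaKO to WT fold was 1.96 on X and 1.68 on the autosomes. Median local background was 3.85 in alphaKO and 5.87 in WT on X, and 5.85 in alphaKO and 8.31 in WT on the autosomes. The lowest background was 3.85 in the whole alphaKO list and 4.22 in the WT list. Many alphaKO peaks on X thus had the lowest background of their list, which enters their folds. How pileups were scaled between the libraries is unknown, so these ratios are compared between chromosomes and not read as a change of signal. The 2 strongest X sites lay 3.76 kb from Jade3 (103) and 2.12 kb before Asb12 (75.3). The sex of the animals is not given in the sources used here, and its part in this difference was not tested. Autosomal shares without a partner ran between 42.0% on chromosome 11 and 58.9% on chromosome 14.

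At the distance limits, the sites just inside lay 1.00 kb from Erlin1 (9.01) and 1.01 kb from Odc1 (8.96), and 49.9 kb from Gabrg1 (27.2) and 50.0 kb from Lsm3 (23.9). Peaks just outside lay 0.980 kb from Ube2q1 (11.5) and 0.981 kb from Nadk2 (14.2), and 50.0 kb from Cldn34b3 (36.7) and 50.1 kb from Cdo1 (8.82).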

How the data were processed

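Epidermis was separated from mouse dorsal skin, cross-linked, sheared to about 300 bp and precipitated with a p63 antibody, per the series' design text. The submitters' processing notes name the mm10 build, Bowtie2 and MACS2 (version 2.1.1.20160309). Aligner and caller options, duplicate handling and the control of each call: not given in the sources used here. For each ChIP library the authors deposited 1 peak list, with no pooling. Per the file headers, each peak has a summit pileup (a coverage signal), −log10 of a p-value and of a q-value, and a fold enrichment (a ratio over local background). The fold, pileup and q are the authors' values and describe and rank peaks within a list. Values of both lists set side by side carry separate backgrounds and an unknown scaling.

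Peaks sharing at least 1 bp counted as partners. Distances ran from the summit to the nearest start or end of 21883 protein-coding genes of RefSeq GRCm38.p6. Local background was recovered by adding 1 to the pileup, dividing by fold and subtracting 1. Strand was known for 17491 of these genes. The 95% Wilson intervals on shares reflect counting error alone: peaks of 1 library do not replicate each other. Read depth is unknown. The sites and the gene lists were chosen with earlier results of these data known. Named genes were those of the 12 strongest sites, up to 4 per list by fold, the 5 genes nearest to the most sites (ties by summed fold), and sites at the distance limits, of lowest fold and in the closest pairs; others named, including the X sites, the windows and sites beside microRNAs, were chosen after their values were seen. Some genes that the rule names are not reported here. Scripts were tested on simulated peaks. Software: matplotlib 3.10.9, SciPy 1.17.1, pandas 2.3.3 and NumPy 2.4.6 under Python 3.11.15.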

Additional observations from a re-analysis of the deposited data

How the results depend on the processing

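With 1 library per genotype no result had a test. Of 105 comparisons of a result with an alternative, 85 stayed within the 95% interval of the value reported, or within 1.5 times of a count, and 20 moved further. The cause was not tested except where the setting itself moves the value. Some of the 85 could hardly move. Counting summits within 500 bp as shared changed nothing, since no site was closer than 0.536 kb to a WT summit. Leaving out Y kept 1963 sites, and leaving out backgrounds above 50 kept 1967. Cutting the alphaKO list to the length of the WT list left 1312 sites in place of 1969, with a median fold of 17.1 and a median width of 388 bp. In that setting 55.3% of the sites had a WT-marked nearest gene, 34.1% had a partnered peak within 50 kb, and 44.1% of the peaks at these distances had no partner. The share of sites beside a WT-marked gene, 59.9%, was 56.1% at −log10 q of at least 10, 53.7% at a fold of at least 5 and 49.2% with all RefSeq genes. The share within 50 kb of a partnered peak, 42.5%, was 40.3% at −log10 q of at least 10, 39.6% at a fold of at least 5, 40.3% with an outer limit of 100 kb and 37.7% with all RefSeq genes. The share of peaks at these distances without a partner, 49.3%, was 51.9% when partners had to overlap by 50% of both, 51.4% at a fold of at least 5 and 52.1% with all RefSeq genes. The median distance, 13.2 kb, was 8.78 kb with an outer limit of 25 kb, 19.9 kb with 100 kb, 18.1 kb with an inner limit of 5 kb and 9.97 kb with all RefSeq genes. Counting any list gene within 50 kb gave 139 sites in place of 94. Leaving out peaks with a background above 50, or the X and Y chromosomes, was added after the data were seen. A search of all summits for p53-family sites, and its alternatives, was not run, since no genome sequence was used here. No paired analysis was possible because each genotype had 1 library. The lists hold no read counts, so depth sets no stated limit on the values.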

Other observations

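Beside microRNA genes, a summit of an alphaKO-only site between genes lay within 5 kb of 7 microRNA hairpins. The closest was Mir6375, at 0.513 kb with a fold of 12.9, and the strongest, at 18.4, lay 4.90 kb from Mir675, the microRNA made from the imprinted lncRNA H19. The site covered chromosome 7, 142571988 to 142572380, and the nearest protein-coding gene was Mrpl23, 31.4 kb away. Mir6349 had a site at 0.949 kb (18) and Mir423 at 1.49 kb (14.7).

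Of the 200 strongest sites, 17 (8.50%) had the summit within a lncRNA gene, against 14.4% of all 1969 sites. The site near Lipc (fold 111) stood in Gm32017, that near Muc13 (99.7) in Gm15658 and that near Zfp280d (92.3) in Gm27188. A site 11.2 kb from Ptgs2, which encodes the prostaglandin synthase COX-2, stood in its antisense lncRNA Ptgs2os with a fold of 52.9.

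A few sites came in close pairs. Among the 1969 sites, the next site on the chromosome was within 2 kb in 21 cases and within 10 kb in 105. Such gaps were not counted for other alphaKO peaks, so pairing is not shown to be particular to the sites. The closest pairs were 0.688 kb apart after Emb (10.3 and 13.0), 0.727 kb apart beside Slitrk6 (14.8 and 9.65) and 0.946 kb apart beside Lmo1 (6.94 and 37.1). The lowest folds were 1.62 near LOC665918 on Y, 2.02 near Mid1 and 2.04 near Gm52481 on Y, with local backgrounds of 57.2, 26.2 and 28.4 pileup units. Y held 6 of the sites.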
